A study of Homo sapiens with 15 samples.

Results

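HMOX1, NQO1, GCLM, GCLC, TXNRD1, SRXN1, TXN, FTL and FTH1 are 9 antioxidant, detoxification and iron storage genes known as targets of the transcription factor NRF2. They were taken by symbol from the 57500 genes of the count tables, and 8 of them were among the 15517 genes with enough reads to be tested. HMOX1 was the member left out, with 3 reads in all 15 libraries together. Of the other 8, only GCLC passed the test in any comparison: it was 1.46-fold higher with the sgRNA than without it under JQ1-FCPF, a call that 4 of 21 other settings lost. The gene for the NRF2 inhibitor, KEAP1, was lower in that comparison, and the genes for KEAP1 and NRF2 were both lower than in the control in 3 of the 4 treated groups. Under JQ1, 8 to 10 of the 21 other settings lost the KEAP1 calls and the NRF2 call with sgRNA.

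RNA was sequenced from K562 cells, a human chronic myeloid leukaemia line, in 5 groups of 3 libraries. JQ1 occupies the bromodomains with which BET proteins bind acetylated histones, and JQ1-FCPF is a form of it that carries the name of the FCPF tag on the transfected protein, Cas9FCPF. The groups were Cas9FCPF with sgRNA and JQ1-FCPF, Cas9FCPF without sgRNA and JQ1-FCPF, Cas9FCPF with sgRNA and JQ1, Cas9FCPF without sgRNA and JQ1, and the control. Both compounds were given at 1 µM, and all groups carry the label 1 h. The control is labelled WT and NT, while the series text names DMSO, and no label says that the control cells were transfected. A difference between a treated group and the control therefore holds transfection, Cas9FCPF and compound together, which cannot be told apart. No target of the sgRNA is named, and the labels call the protein Cas9 where the title speaks of dCas9. Whether the 3 libraries of a group are separate cultures is not stated, so the p-values measure only how these samples vary, which may be technical variation.

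Libraries held 12625669 to 17544518 counts. All 13 markers of the erythroid program that K562 cells are known for had a median over the 15 libraries of at least 1 CPM (reads per 1e6 reads of the scaled library). Their summed level was 1680 to 2610 CPM. JQ1-FCPF with sgRNA had lower sums than JQ1-FCPF without sgRNA, at 1820 to 2100 CPM against 2140 to 2400 CPM. The lowest sum of the series was in JQ1 with sgRNA, which had 1680 to 2450 CPM and overlapped both. Markers of T and NK cells, B cells, epithelial cells and fibroblasts reached that median for 2 of 5, 2 of 4, 2 of 5 and 1 of 5 genes, and none of them was at 0 in all libraries. Replicate 2 of JQ1-FCPF with sgRNA stood apart from replicates 1 and 3, at 32.2 on the first principal component against -16.7 and -14.8. Replicate 1 of JQ1 with sgRNA had the highest mitochondrial share of counts, 7.46%, against 2.31% to 5.98% elsewhere. Where a member passed or lost the test without these 2 libraries, that value is given beside the result. The comparisons of JQ1 without sgRNA with the control and with JQ1-FCPF without sgRNA hold neither library. Leaving both out acts there only through the scaling and the spread estimated over all groups. Calls over all genes then rose from 1908 to 4224 and from 1210 to 3560.

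NRF2, encoded by NFE2L2, is held in the cytoplasm by KEAP1, which hands it to the CUL3 ubiquitin ligase for destruction. Electrophiles and oxidants modify KEAP1, and NRF2 then enters the nucleus, pairs with a small MAF protein and binds antioxidant response elements in front of its target genes. BACH1, a heme-binding repressor, competes for the same elements and is best known for holding HMOX1 silent. In erythroid cells the pathway meets heme and iron handling, since heme oxygenase releases iron from heme and ferritin stores it.

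The antioxidant response element has the core TGACNNNGC, which was searched on both strands in RefSeq promoter windows of build GRCh38.p14, reaching 250 bases before and 50 after each start site. The table held 8 windows for 7 of the 9 genes, those other than HMOX1 and FTH1. The core was present in 3 of the 8 windows, which belong to GCLM and TXNRD1, and in 13.3% of all 35116 windows. The windows of GCLC, NQO1, SRXN1, TXN and FTL did not hold these letters. Sequence beyond the windows was not searched, so elements farther from a start site would be missed. The stretches below are shown because they match the core of the element by which the pathway is thought to reach its targets. Whether NRF2 binds them in these cells was not tested. They run 5′ to 3′ on the strand of the gene, and the capitals mark the core.
GCLM, chr1:93909431-93909490, minus strand: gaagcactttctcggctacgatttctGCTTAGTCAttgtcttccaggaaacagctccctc
TXNRD1, upstream start site, chr12:104215654-104215714, plus strand: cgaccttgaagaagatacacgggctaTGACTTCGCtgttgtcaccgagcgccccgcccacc
TXNRD1, downstream start site, chr12:104286904-104286964, plus strand: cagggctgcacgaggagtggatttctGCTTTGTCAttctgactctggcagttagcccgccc
The core of GCLM began 34 bases before its start site, and those of TXNRD1 began 99 bases before the upstream and 102 bases before the downstream one. Another match in the upstream TXNRD1 window ran across the start site and is not printed. The count tables give 1 value per gene, so the start sites of TXNRD1 could not be measured separately.

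On a scale of CPM per kilobase of exons, the 8 tested genes spanned more than 3 orders of magnitude (powers of 10). FTL, the ferritin light chain, had a median of 3070 CPM per kb over the 15 libraries, and FTH1, the ferritin heavy chain that oxidises iron for storage, had 450. TXN, the cytosolic thioredoxin, followed at 191 CPM per kb, NQO1 at 38.3, TXNRD1 at 27.6 and GCLM at 9.64. SRXN1 had a median of 2.09 and GCLC of 1.76 CPM per kb. The ranges over libraries did not overlap between neighbours in this order except for 2 pairs. NQO1 ranged from 25.5 to 45.7 and TXNRD1 from 22.5 to 32.6 CPM per kb, and SRXN1 ranged from 1.27 to 3.35 and GCLC from 1.33 to 2.74 CPM per kb. Within a gene, the highest library was 1.45 times the lowest for TXNRD1 and 2.63 times for SRXN1, with the other 6 tested genes between.

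**Figure D1:**
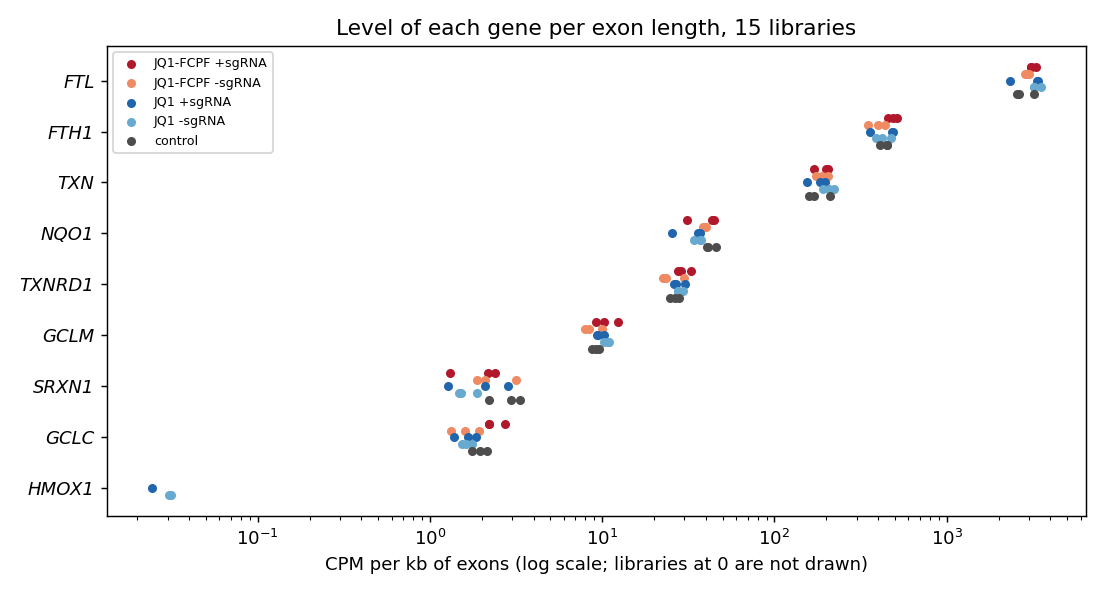
Level of each of the 9 genes (rows) in CPM per kb of exons on a log axis, 1 point per library and 1 colour per group. FTL lies near 3070 and GCLC near 1.76 CPM per kb, and HMOX1 shows 3 points because its other 12 libraries are at 0.

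HMOX1, the inducible heme oxygenase that breaks heme down to biliverdin, carbon monoxide and iron, was at the edge of detection. The gene lies at chr22:35380361-35394214 on the plus strand (GRCh38), and no other gene of the annotation overlaps it. One read each was counted in replicate 1 of JQ1 with sgRNA and in replicates 2 and 3 of JQ1 without sgRNA, and the other 12 libraries were at 0. Over all libraries this came to 0.0134 CPM, with an exact Poisson interval of 0.00277 to 0.0392 CPM that covers counting error only. A count of 0 allows up to 3 counts, or 0.171 to 0.238 CPM depending on the depth of the library. The genes on either side, TOM1 and MCM5, had 4990 and 50778 reads, so the region as such was counted. At this depth no difference in HMOX1 between the groups was detectable.

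GCLC encodes the catalytic subunit of glutamate-cysteine ligase, which carries out the rate-limiting step of glutathione synthesis, and lies at chr6:53497341-53616970 on the minus strand. Its level was 23.2, 18.7 and 18.6 CPM in the libraries of JQ1-FCPF with sgRNA, against 16.4, 11.3 and 13.5 CPM in those of JQ1-FCPF without sgRNA. JQ1 gave 15.8, 14.0 and 11.7 CPM with sgRNA and 13.7, 14.8 and 13 CPM without it, and the control had 18.1, 14.9 and 16.5 CPM. All 3 libraries of JQ1-FCPF with sgRNA were above every other library of the series.

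With sgRNA, GCLC was higher than without it under JQ1-FCPF by 0.55 ± 0.15 (SE) on the log2 scale (adjusted p = 0.0286, edgeR's quasi-likelihood test with Benjamini-Hochberg adjustment). It was the 1 member of 8 called in this comparison, in which 6.25% of all tested genes were called and 2.06% were called higher. The reads come from whole cultures, so a change in the number of cells with a transcript and a change in its amount per cell cannot be told apart. At the same dose and time and both with sgRNA, GCLC was also higher under JQ1-FCPF than under JQ1, by 0.54 ± 0.15 (adjusted p = 0.0473), and was again the 1 member of 8 called, against 2.95% of all genes called and 1.18% called higher. This call was lost in 12 of 21 other settings: without any 1 control library (adjusted p = 0.0557 to 0.0671), without any 1 library of JQ1 without sgRNA (0.0602 to 0.064), without replicate 1 (0.277) or 3 (0.102) of JQ1-FCPF with sgRNA, 2 (0.112) or 3 (0.162) of JQ1 with sgRNA or 3 of JQ1-FCPF without sgRNA (0.0647), and with only the groups compared in the fit (0.278). These comparisons share the libraries of JQ1-FCPF with sgRNA.

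The sgRNA effect on GCLC under JQ1 was 0.00, with an interval of -0.31 to 0.31. The sgRNA effect under JQ1-FCPF minus that under JQ1 was 0.55, with a 95% interval of 0.11 to 0.99, and missed the threshold (adjusted p = 0.242). In this test 0 members were called by edgeR, 2 had an unadjusted p under 0.05, where 13.9% of all genes did, DESeq2 called 0, and 0.786% of all genes were called. Without the 2 libraries that stood apart, the difference was 0.72 and passed (adjusted p = 0.0425), and the rise under JQ1-FCPF was 0.60 (adjusted p = 0.0038). The call under JQ1-FCPF was lost when replicate 1 of the sgRNA libraries was left out (0.44, adjusted p = 0.111), or replicate 2 (0.43, adjusted p = 0.164) or 3 (0.54, adjusted p = 0.107) of those without sgRNA, and with only the groups compared in the fit (0.56, adjusted p = 0.112). Against the control, GCLC differed by 0.29 in JQ1-FCPF with sgRNA, by -0.26 in JQ1-FCPF without sgRNA, by -0.26 in JQ1 with sgRNA and by -0.26 in JQ1 without sgRNA, and none of these passed (adjusted p between 0.253 and 1.0).

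**Figure D2:**
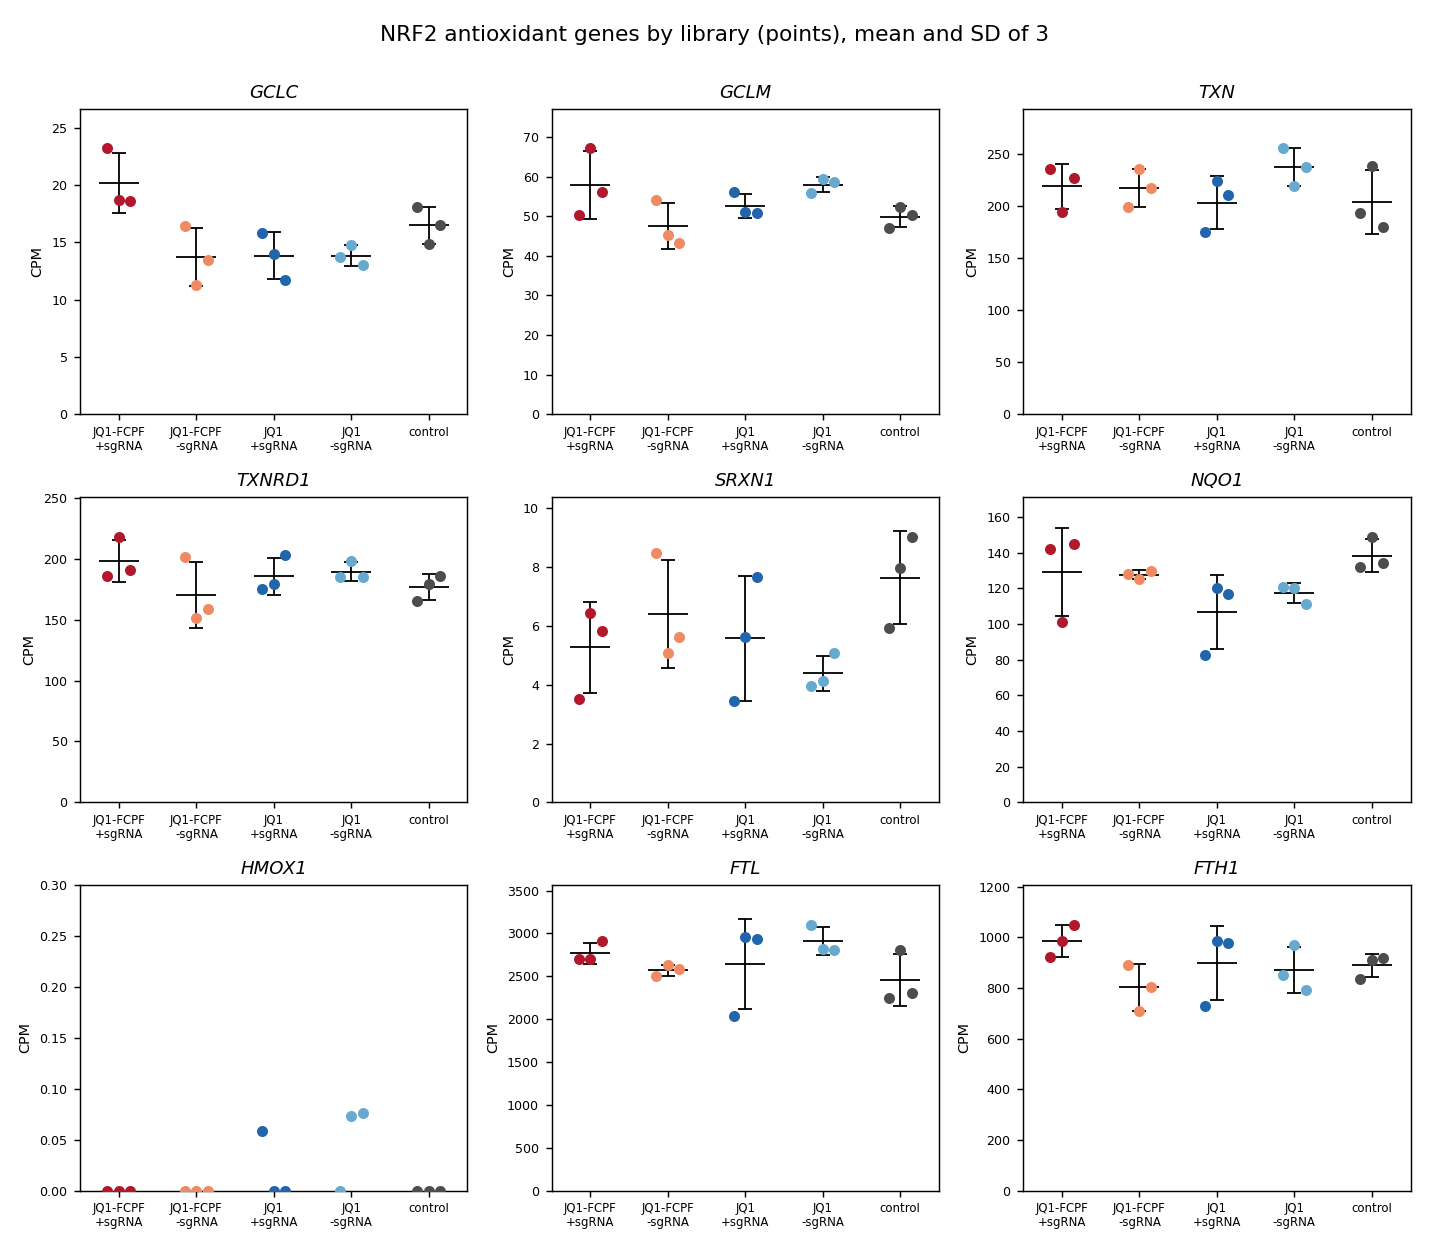
CPM (vertical axes, from 0) of the 9 genes, 1 panel per gene, with a point per library and the mean and SD of 3 libraries as bars (none for HMOX1), groups from JQ1-FCPF with sgRNA on the left to the control on the right. GCLC has its 3 highest points, 18.6 to 23.2 CPM, in JQ1-FCPF with sgRNA, while the points of TXN and FTL overlap across most groups.

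GCLM is the modifier subunit of the same ligase and lowers its need for glutamate, at chr1:93885205-93909456 on the minus strand. It had 50.2, 67.1 and 56.1 CPM in JQ1-FCPF with sgRNA, against 54.2, 45.3 and 43.3 CPM in JQ1-FCPF without sgRNA. The groups overlapped, and the difference of 0.28 did not pass (adjusted p = 0.139), but it did without replicate 1 of the group without sgRNA (0.38, adjusted p = 0.0478). JQ1 without sgRNA held 55.9, 59.4 and 58.7 CPM, above the 47.1, 52.3 and 50.3 CPM of the control with no overlap, but the difference of 0.22 did not pass (adjusted p = 0.195). Without the 2 libraries that stood apart, which belong to other groups, it was 0.23 and passed (adjusted p = 0.0446). Per kb, GCLM exceeded GCLC by 4.57 ± 1.13 times in JQ1-FCPF with sgRNA, 5.48 ± 0.687 times in JQ1-FCPF without sgRNA, 6 ± 0.671 times in JQ1 with sgRNA, 6.57 ± 0.441 times in JQ1 without sgRNA and 4.77 ± 0.711 times in the control (SD, n = 3 each). The 2 subunits thus did not keep 1 ratio: it ranged from 3.38 to 7.08 over the libraries, and the lowest was replicate 1 of JQ1-FCPF with sgRNA.

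TXN and TXNRD1 form the thioredoxin pair, in which the reductase, a selenoprotein, uses NADPH to recharge thioredoxin. TXN (chr9:110243811-110256640, minus strand) averaged 218 ± 21.9 CPM in JQ1-FCPF with sgRNA and 217 ± 17.7 CPM in JQ1-FCPF without sgRNA, 203 ± 25.1 CPM in JQ1 with sgRNA and 237 ± 18.2 CPM in JQ1 without sgRNA, and 204 ± 30.4 CPM in the control (SD, n = 3 each). The spread within groups was as wide as the gaps between them, and no comparison of TXN passed.

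TXNRD1 (chr12:104215779-104350305, plus strand) had 186, 218 and 191 CPM in JQ1-FCPF with sgRNA, against 201, 151 and 159 CPM in JQ1-FCPF without sgRNA. One library of the group without sgRNA lay among those with it, and the difference of 0.22 did not pass (adjusted p = 0.242). Leaving out that library, replicate 1 without sgRNA, gave 0.35 and a call (adjusted p = 0.0422). TXNRD1 shares its locus with EID3 and RPL18AP3, and whether counting used strand is not given. The genes overlapping it held 3273 reads over the 15 libraries, against its own 41114, and reads of the shared stretches cannot be told apart. For GCLC the overlapping genes held 12 reads against 3481, for SRXN1 14 against 1324 and for FTH1 162 against 198833.

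SRXN1 encodes sulfiredoxin, which repairs over-oxidised peroxiredoxins, and lies at chr20:646615-653370 on the minus strand. It was the least abundant tested gene in CPM, at 3.43 to 9.03. JQ1 without sgRNA had 3.96, 4.11 and 5.08 CPM, against 5.92, 7.96 and 9.03 CPM in the control. The groups did not overlap, and the difference of -0.80 ± 0.27 (SE) was the largest in size of any tested member in any of the 9 comparisons. It fell just short of the threshold (adjusted p = 0.0524), and 9 of 21 other settings called it, among them DESeq2 (adjusted p = 0.0303) and the fit without the 2 libraries that stood apart (-0.80, adjusted p = 0.00459). Those 2 libraries belong to other groups. Relative to the control, SRXN1 differed by -0.53 in JQ1-FCPF with sgRNA (adjusted p = 0.241) and by -0.46 in JQ1 with sgRNA (adjusted p = 0.237), with overlapping libraries in both.

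NQO1, a quinone reductase that is the standard readout of NRF2 in many human lines, lies at chr16:69706996-69726951 on the minus strand. It had 82.9, 120 and 117 CPM in JQ1 with sgRNA, against 132, 149 and 134 CPM in the control. The groups did not overlap, and the difference of -0.37 ± 0.13 (SE) missed the threshold (adjusted p = 0.0591). The lowest value came from the library with the highest mitochondrial share. Leaving that library and the other that stood apart out, the difference was smaller, -0.22, but passed (adjusted p = 0.042). In JQ1 without sgRNA, NQO1 had 121, 120 and 111 CPM and differed from the control by -0.24 (adjusted p = 0.245). This passed without the 2 libraries that stood apart (-0.23, adjusted p = 0.0175), which belong to other groups, and with only the groups compared in the fit (-0.23, adjusted p = 0.0203). Between the compounds with sgRNA, NQO1 had 142, 101 and 145 CPM under JQ1-FCPF, where replicate 2 was the low one, and the difference from JQ1 was 0.28 (adjusted p = 0.267). It was 0.43 and passed without that replicate (adjusted p = 0.0131), and 0.28 and passed without both libraries that stood apart (adjusted p = 0.0202).

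FTL (chr19:48965301-48966878, plus strand) and FTH1 (chr11:61959718-61967660, minus strand) build the ferritin shell, and iron governs both at the level of translation as well. FTH1 had 922, 986 and 1050 CPM in JQ1-FCPF with sgRNA, against 893, 709 and 806 CPM in JQ1-FCPF without sgRNA. The groups did not overlap, but the difference of 0.30 did not pass (adjusted p = 0.17), and passed without the 2 libraries that stood apart (0.30, adjusted p = 0.0481). FTL had 2700, 2700 and 2910 CPM in JQ1-FCPF with sgRNA and 2500, 2630 and 2580 CPM in JQ1-FCPF without sgRNA, again with no overlap and no call.

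In JQ1 without sgRNA, FTL had 3100, 2820 and 2810 CPM, and in the control 2250, 2810 and 2310 CPM. The libraries met at 2810 CPM, and the difference of 0.24 did not pass (adjusted p = 0.251), but 0.25 did without the 2 libraries that stood apart (adjusted p = 0.0397). Those 2 libraries belong to other groups. JQ1 with sgRNA was the most scattered group for FTL, with 2040 CPM in replicate 1, the library with the highest mitochondrial share, and 2960 and 2940 CPM in the others. The ratio of FTL to FTH1 per kb ranged from 5.82 to 8.59 over the libraries. Both ferritin genes have processed pseudogenes, but the 25 of FTH1 held at most 1.1% and the 16 of FTL at most 0.244% of the combined reads in any library, and the 7 of TXN held at most 0.232%.

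Across the 8 tested members, 7 had a log2 difference above 0 for JQ1-FCPF with against without sgRNA, with a median of 0.16 where all genes had 0.01. Of these, 3 had libraries that did not overlap between the groups, where 22.6% of all genes did. For JQ1 with against without sgRNA the median was -0.08 (0.01 over all genes), 3 members were above 0, and 0 were called by edgeR, by DESeq2 or at an unadjusted p under 0.05, against 0.0129% of all genes called and 8.15% under that p. In JQ1-FCPF with sgRNA against the control 6 members were above 0, with a median of 0.16 (0.01 over all genes), and 0 were called by edgeR or DESeq2 or had an unadjusted p under 0.05, against 7.21% of all genes called and 21.7% under that p.

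In JQ1 with sgRNA against the control 14.2% of all genes were called, and in JQ1 without sgRNA 12.3% were, but 0 of the 8 members passed in either. An unadjusted p under 0.05 was reached by 1 member in each, NQO1 and SRXN1, which are those DESeq2 called, against 30.1% and 28.2% of all genes. The member medians were 0.01 and 0.03, against 0.01 and 0.00 over all genes. Non-overlapping libraries were seen for 1 of 8 members in JQ1 with sgRNA and for 4 of 8 in JQ1 without sgRNA, where 34.5% and 41.0% of all genes had them. JQ1-FCPF without sgRNA had 0 members called against the control by edgeR or DESeq2, none at an unadjusted p under 0.05, with 0.00644% of all genes called and 1.84% under that p.

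Without sgRNA, the free and the tagged compound were compared at the same dose and time. No member was called by edgeR or DESeq2 between JQ1-FCPF and JQ1 here, 1 had an unadjusted p under 0.05 as did 25% of all genes, and 7.80% of all genes were called. That member was GCLM, with 54.2, 45.3 and 43.3 CPM under JQ1-FCPF and 55.9, 59.4 and 58.7 CPM under JQ1, a difference of -0.28 with an interval of -0.51 to -0.06 (adjusted p = 0.112). It passed in 4 of 21 other settings: without the 2 libraries that stood apart (-0.28, adjusted p = 0.0151), without the first of them alone (-0.28, adjusted p = 0.0411), without replicate 1 of JQ1-FCPF without sgRNA (-0.39, adjusted p = 0.0482) and with only the groups compared in the fit (-0.28, adjusted p = 0.0426). The 2 libraries that stood apart belong to neither of these groups. GCLC differed by -0.01 with an interval of -0.32 to 0.31, so a shift of up to about that size was not detectable. The compounds were compared in 2 matched pairs, with and without sgRNA. All p-values here are adjusted over all genes within each comparison.

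**Figure D3:**
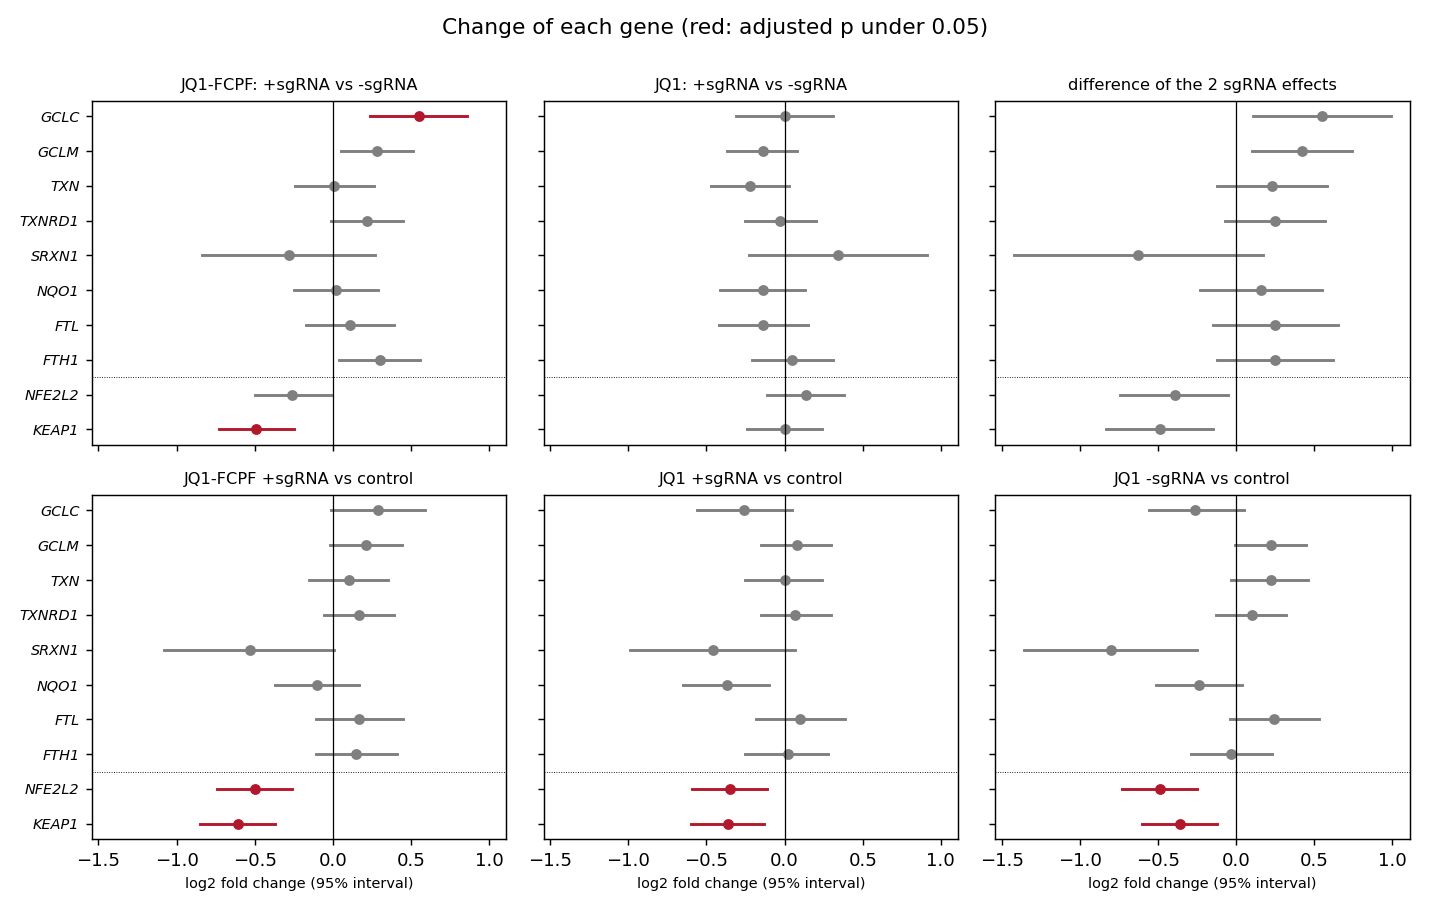
Log2 fold change (points) with 95% interval (lines) of the 8 tested genes and, under the dotted line, of NFE2L2 and KEAP1, in 6 of the 9 comparisons, red where the adjusted p was under 0.05. GCLC is the only red gene above the dotted line, at 0.55 for JQ1-FCPF with against without sgRNA, while KEAP1 is red in 4 panels and NFE2L2 in 3.

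KEAP1, the adaptor that targets NRF2 for destruction, was 1 of 10 regulators listed. Of these, 1 fell and 0 rose with the sgRNA under JQ1-FCPF, where 4.2% of all genes fell and 2.06% rose. KEAP1 had 84.0, 90.3 and 103 CPM in JQ1-FCPF with sgRNA, against 139, 123 and 129 CPM in JQ1-FCPF without sgRNA. The control had 130, 146 and 148 CPM. The lowest of the libraries without sgRNA was above the highest of those with it. KEAP1 fell by 0.49 on the log2 scale relative to JQ1-FCPF without sgRNA (adjusted p = 0.0127) and by 0.61 relative to the control (adjusted p = 0.00193).

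Under JQ1, KEAP1 had 89.5, 112 and 129 CPM with sgRNA and 115, 109 and 106 CPM without it. Both groups were lower than the control by 0.36, with adjusted p = 0.0385 with sgRNA and 0.0439 without it. The call with sgRNA was lost in 8 of 21 other settings, among them the fit without the 2 libraries that stood apart (-0.24, adjusted p = 0.0638). The call without sgRNA was lost in 9 of 21, among them on leaving out any 1 library of either group (-0.41 to -0.32, adjusted p = 0.058 to 0.165). The sgRNA effect on KEAP1 differed between the compounds by -0.49 with an adjusted p = 0.181, and by -0.59 with an adjusted p = 0.0085 without those libraries. The fall under JQ1-FCPF was lost without replicate 1 of the sgRNA libraries (-0.43, adjusted p = 0.0594).

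NFE2L2 itself, the gene for NRF2, had 47.6, 58.1 and 51.6 CPM in JQ1-FCPF with sgRNA, 57.2, 55.3 and 61.4 CPM in JQ1 with sgRNA and 51.7, 57.7 and 48.6 CPM in JQ1 without sgRNA. The control had 74.3, 73.4 and 74.6 CPM, above every library of these 3 groups. NFE2L2 fell by 0.50 in JQ1-FCPF with sgRNA (adjusted p = 0.0102), by 0.35 in JQ1 with sgRNA (adjusted p = 0.0443) and by 0.49 in JQ1 without sgRNA (adjusted p = 0.0106). JQ1-FCPF without sgRNA was scattered, at 76.0, 52.7 and 58.9 CPM, and its difference from the control, -0.24, did not pass (adjusted p = 1.0).

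These comparisons share the 3 control libraries, whose spread was small for NFE2L2 (SD 0.646 CPM). The call in JQ1-FCPF with sgRNA was lost without its replicate 1 (-0.44, adjusted p = 0.0509), and that in JQ1 without sgRNA without its replicate 3 (-0.43, adjusted p = 0.0613) or control replicate 3 (-0.48, adjusted p = 0.052). The call in JQ1 with sgRNA was lost in 10 of 21 other settings, among them on leaving out any 1 library of either group (-0.40 to -0.32, adjusted p = 0.0584 to 0.118). The sgRNA under JQ1-FCPF gave a difference of -0.26 with adjusted p = 0.204. BACH1, the repressor, averaged 41.3 ± 5.44 CPM in JQ1-FCPF with sgRNA, 37.5 ± 6.5 CPM in JQ1-FCPF without sgRNA, 40.8 ± 5.54 CPM in JQ1 with sgRNA, 40.0 ± 5.29 CPM in JQ1 without sgRNA and 36.9 ± 2.66 CPM in the control (SD, n = 3 each), and was called in no comparison. SQSTM1, the autophagy receptor that can pull KEAP1 away from NRF2, had 91.4, 97.1 and 83.0 CPM in JQ1 without sgRNA and 120, 108 and 125 CPM in the control, a fall by 0.38 (adjusted p = 0.0366). This call was lost without any 1 library of JQ1 without sgRNA and without control replicate 1 or 3 (-0.42 to -0.32, adjusted p = 0.0695 to 0.16).

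**Figure D4:**
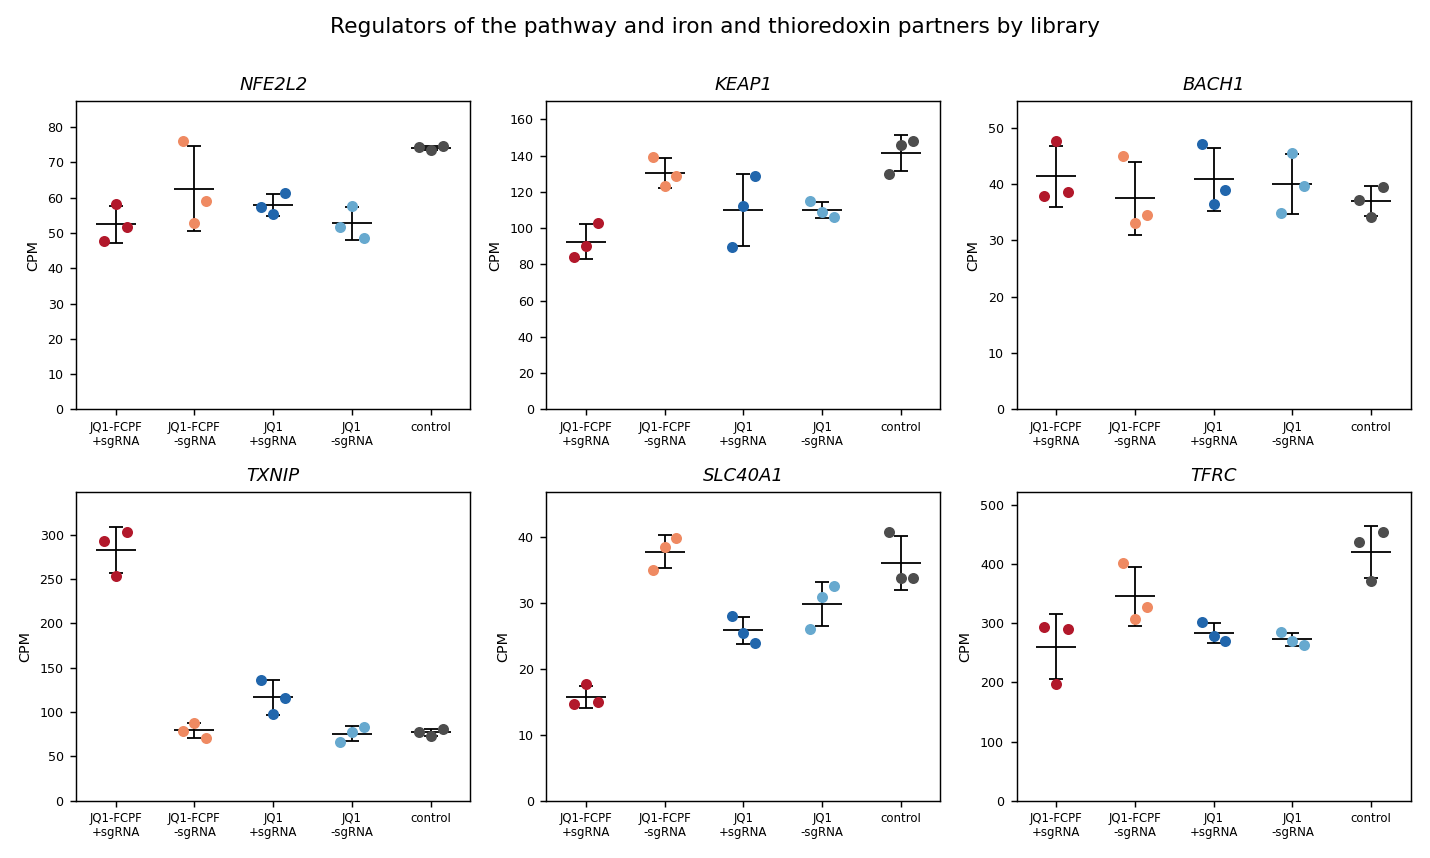
CPM (vertical axes, from 0) by library (points) with the mean and SD of 3 libraries for NFE2L2, KEAP1, BACH1, TXNIP, SLC40A1 and TFRC, groups from JQ1-FCPF with sgRNA on the left to the control on the right. The control points of NFE2L2 lie at 73.4 to 74.6 CPM, and TXNIP reaches 254 to 303 CPM in JQ1-FCPF with sgRNA.

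A further 67 genes in 7 lists (regulators, glutathione, thioredoxin and peroxiredoxin, NADPH supply, heme and iron, detoxification and export, superoxide and peroxide) surround these members, and 63 of them were tested. For JQ1-FCPF with against without sgRNA 3 were higher and 2 lower, which is 7.94% of them where 6.25% of all genes were called, and for JQ1 with against without sgRNA 0 of them were called by edgeR. Against the control, 1 was higher and 4 were lower in JQ1-FCPF with sgRNA (7.94%, against 7.21% of all genes), and 0 were called in JQ1-FCPF without sgRNA. In JQ1 with sgRNA 5 were higher and 4 lower than in the control (14.3%, against 14.2% of all genes), and in JQ1 without sgRNA 3 were higher and 5 lower (12.7%, against 12.3%). These shares lay near those of all genes. Between the compounds, 1 was higher and 1 lower under JQ1-FCPF than under JQ1 with sgRNA (3.17%, against 2.95% of all genes), and 0 were higher and 1 lower without it (1.59%, against 7.80%).

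In the thioredoxin and peroxiredoxin list the sgRNA effect under JQ1-FCPF was above 0 for 11 of 11 genes, with a median of 0.18. Over all genes, 7906 of 15517 were above 0 and the median was 0.01. In JQ1-FCPF with sgRNA, 8 of the 11 were above the control (median 0.16) and 6 were above JQ1 with sgRNA (median 0.1). In JQ1 without sgRNA, 7 were above the control (median 0.11). For the sgRNA effect under JQ1-FCPF, 1 of the 11 was called, where 2.06% of all genes were called higher. That gene was TXNIP, which binds thioredoxin and holds it inactive and also curbs glucose uptake. It had 293, 254 and 303 CPM in JQ1-FCPF with sgRNA, against 79.1, 87.9 and 71.1 CPM in JQ1-FCPF without sgRNA. Every library with sgRNA was far above every one without it, by 1.84 on the log2 scale (adjusted p = 3.8e-09), in the comparison in which TXN and TXNRD1 were not called. Under JQ1 with sgRNA TXNIP had 136, 97.3 and 116 CPM, against 77.2, 73.4 and 81.2 CPM in the control, a rise of 0.59 (adjusted p = 0.00407). With sgRNA it was higher under JQ1-FCPF than under JQ1 by 1.28 (adjusted p = 2.68e-06).

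TXNRD3, a thioredoxin reductase best known from testis, was higher in JQ1 with sgRNA than in the control by 1.16 (adjusted p = 0.00522). Its level was only 3.6 CPM on average there, against 1.61 CPM in the control. In JQ1 without sgRNA against the control, PRDX5, a peroxiredoxin of mitochondria and peroxisomes, was higher by 0.38 (adjusted p = 0.0421) and SESN2, a stress-inducible sestrin, fell by 0.41 (adjusted p = 0.0356). The PRDX5 call was lost in 7 of 21 other settings (adjusted p up to 0.168), among them without any 1 library of JQ1 without sgRNA and without control replicate 1 or 3 (0.34 to 0.40). The SESN2 call was lost on leaving out any 1 library of either group (-0.42 to -0.38, adjusted p = 0.0717 to 0.129).

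Of 12 genes of heme and iron handling, 1 fell with the sgRNA under JQ1-FCPF and 2 fell in JQ1-FCPF with sgRNA relative to the control, where 4.20% and 4.79% of all genes fell. SLC40A1 encodes ferroportin, the only known iron exporter of vertebrate cells and a target of NRF2 in macrophages. It had 14.7, 17.7 and 15 CPM in JQ1-FCPF with sgRNA, against 35.1, 38.6 and 39.9 CPM in JQ1-FCPF without sgRNA and 40.8, 33.8 and 33.8 CPM in the control. The libraries with sgRNA were lower by 1.26 than those without it (adjusted p = 8.4e-07) and by 1.19 than the control (adjusted p = 1.7e-06), with no overlap in either.

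In JQ1 with sgRNA, SLC40A1 had 28.1, 25.5 and 24.0 CPM, which was lower than the control by 0.48 (adjusted p = 0.0104), and this call was lost without control replicate 1 (-0.38, adjusted p = 0.0618). With sgRNA it was lower under JQ1-FCPF than under JQ1 by 0.71 (adjusted p = 0.00277), a call lost when only these groups were fitted (adjusted p = 0.131). TFRC, the transferrin receptor that brings iron into the cell, had 293, 197 and 291 CPM in JQ1-FCPF with sgRNA, 302, 278 and 270 CPM in JQ1 with sgRNA and 285, 270 and 263 CPM in JQ1 without sgRNA, against 438, 371 and 454 CPM in the control. It fell by 0.69, 0.57 and 0.63 in these 3 groups (adjusted p = 0.00237, 0.00896 and 0.00619). Without control replicate 3 the calls under JQ1 were lost, at -0.51 with sgRNA (adjusted p = 0.0566) and -0.56 without it (adjusted p = 0.0508).

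Of the 13 markers of the erythroid program, 5 fell in JQ1-FCPF with sgRNA, both against JQ1-FCPF without sgRNA (4.20% of all genes fell) and against the control (4.79%), among them NFE2, a relative of NRF2 that binds similar elements (-1.14 and -1.09). None rose in either, though 2 and 5 of the 13 had a difference above 0. Against the control, 1 rose and 3 fell in JQ1 with sgRNA (14.2% of all genes were called in either direction). In JQ1 without sgRNA 1 rose and 1 fell (12.3% of all genes were called). Of the fibroblast markers only COL1A1 was tested. It was higher in JQ1-FCPF with sgRNA, both against JQ1-FCPF without sgRNA (2.06% of all genes were called higher) and against the control (7.21% were called in either direction). It was also higher in JQ1 with sgRNA than in the control, by 0.73 (14.2% were called in either direction). Summed fibroblast marker levels were 4.41 to 6.74 CPM in JQ1-FCPF with sgRNA against 2.09 to 2.31 CPM in JQ1-FCPF without sgRNA. COL1A1 made up most of these sums, at means of 4.86 and 1.96 CPM. NFE2 and COL1A1 were singled out after their values were seen. The part of these markers in the differences of SLC40A1, TFRC, KEAP1, NFE2L2 and GCLC was not tested.

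Among the glutathione genes GGT1, the surface enzyme that starts the breakdown of exported glutathione, had 32.4, 28.8 and 28.5 CPM in JQ1 with sgRNA, against 19.3, 21.2 and 22.4 CPM in the control, and was higher by 0.51 (adjusted p = 0.019). This call was lost without replicate 1 of JQ1 with sgRNA or any 1 control library (0.45 to 0.56, adjusted p = 0.0504 to 0.0705). Without sgRNA it had 16.9, 21.1 and 19.2 CPM under JQ1-FCPF and 26.1, 24.3 and 30.5 CPM under JQ1, and was lower under JQ1-FCPF by 0.50 (adjusted p = 0.0356), a call lost on leaving out any 1 of these 6 libraries (-0.58 to -0.40, adjusted p = 0.0628 to 0.146). The 6 NADPH genes, which feed both reductase systems, had a median of 0.25 for the sgRNA effect under JQ1-FCPF with 6 above 0. None of the 6 was called. Over all genes the median was 0.01, 7906 of 15517 were above 0, and 6.25% were called. The NADPH genes also leaned above the control in JQ1-FCPF with sgRNA, with a median of 0.23 and 6 above 0. In JQ1 their medians against the control were 0.11 with sgRNA (4 above 0) and 0.22 without it (5 above 0).

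Of 12 tested genes of detoxification and export, 2 rose with the sgRNA under JQ1-FCPF, where 2.06% of all genes did, both of them exporters that carry glutathione conjugates among other substrates. ABCC1 had 97.2, 112 and 100 CPM in JQ1-FCPF with sgRNA, against 85.0, 80.4 and 77.2 CPM in JQ1-FCPF without sgRNA, and was higher by 0.35 (adjusted p = 0.0298). This call was lost without replicate 2 with sgRNA (0.29, adjusted p = 0.0716) and without replicate 2 (0.34, adjusted p = 0.0988) or 3 (0.31, adjusted p = 0.142) of the group without sgRNA. It was also lost without a filter on low counts (0.35, adjusted p = 0.0804) and with only the groups compared in the fit (0.35, adjusted p = 0.113). ABCC4 was higher by 0.37 (adjusted p = 0.0488), a call that 15 of 21 other settings lost.

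ABCC3 had 5.99, 4.84 and 4.10 CPM in JQ1 with sgRNA and 4.90, 3.96 and 4.85 CPM in JQ1 without sgRNA, against 2.48, 1.76 and 1.36 CPM in the control. It was higher by 1.42 with sgRNA (adjusted p = 0.00303) and by 1.29 without it (adjusted p = 0.00667), the second a call lost without control replicate 3 (1.10, adjusted p = 0.0573). AKR1C3, an aldo-keto reductase counted among NRF2 targets, was higher in JQ1 without sgRNA than in the control by 0.66 (adjusted p = 0.0463), a call that 13 of 21 other settings lost. Its level was only 3.09 CPM on average there, against 1.96 CPM in the control.

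The 8 tested members did not all follow each other across the 15 libraries. The closest pairs in log2 CPM were TXN and FTL (r = 0.81), GCLM and TXNRD1 (r = 0.79) and TXNRD1 and FTH1 (r = 0.72), while NQO1 and GCLM had the lowest value (r = -0.45) and the ligase subunits GCLM and GCLC had 0.25. These are descriptions over libraries that share groups and scaling. Compared with 9738 protein coding genes, TXN lay closest to ATP5PD and RPS24 (r = 0.97 for both) and RPL19 (0.96), and FTL to RPS28 (0.99), LSM4 (0.98) and RUVBL2 (0.96). NQO1 lay closest to EIF6, C1QBP and PRMT1 (0.97 for all 3). GCLC lay closest to SCYL2 and AZIN1 (0.91 for both) and OSBPL8 (0.9), and GCLM to CTR9 (0.92), CKAP5 (0.91) and MCU (0.9). TXNRD1 lay closest to CAP1 (0.96), NDUFS1 (0.95) and MSN (0.94), FTH1 to AHCY and POC1A (0.95 for both) and CALM3 (0.94), and SRXN1 to REPIN1 (0.91), ZNF282 (0.9) and DPF2 (0.87).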

How the data were processed

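RNA-seq counts were analysed for 15 K562 libraries in 5 groups of 3, grouped by the treatment label. For each library the authors deposited raw counts of reads per gene, in a feature counting layout per the file headers. Aligner, genome build, annotation release, library kit and use of strand: not given in the sources used here. Among the 56898 gene identifiers found in GENCODE release 29, 96.2% had the same start and end there (GRCh38), as did all 9 members.

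Counts were tested with edgeR 4.0.16 in R 4.3.3 (filterByExpr, TMM scaling, quasi-likelihood test, 1 mean per group over all 15 libraries) in 9 comparisons, with Benjamini-Hochberg adjustment over 15517 genes and a threshold of 0.05. The biological coefficient of variation was 11.1%. Levels are CPM on TMM-scaled totals, log2 CPM carries a prior count of 2, and levels between genes use the deposited exon length. The members, the lists, the rule for naming genes (all members, list genes called in a comparison up to 8, and NFE2L2, KEAP1 and BACH1) and the 2 libraries left out together were chosen with earlier results of these data known. Genes most like a member were the 3 protein coding genes of at least 5 CPM with the highest r. Of the list genes, SOD2 was not matched, and GPX1, CBR3 and ABCC2 were too low to test. The test was also run on simulated counts. Alternatives were DESeq2 1.42.0, its size factors, no filter, a fit of the compared groups alone, pseudogenes summed, a block for the letter in the titles, and libraries left out. Library totals of 12625669 to 17544518 counts make counting error small except at a few CPM. Rows that name no gene numbered 0.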

Additional observations from a re-analysis of the deposited data

Results flagged for a closer look

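The sgRNA effect differed between the compounds for 2 of the 63 tested pathway genes, by the test of the difference itself, and for 0 of the 8 members. In this test 0.786% of all genes were called. For TXNIP the effect under JQ1-FCPF exceeded that under JQ1 by 1.22 on the log2 scale (adjusted p = 0.00124, edgeR's quasi-likelihood test), and all 3 libraries of JQ1-FCPF with sgRNA were above those of the other groups. For SLC40A1 the difference was -1.05 (adjusted p = 0.00305), and all 3 libraries of JQ1-FCPF with sgRNA were below those of the other groups. Both passed in all 21 other settings. The cause of these differences was not tested.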

How the results depend on the processing

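The count of members called was recomputed in every comparison. Without a filter on low counts it was 1 in JQ1 with sgRNA (NQO1) and 1 in JQ1 without sgRNA (SRXN1) against the control. Of all genes, 2311 and 1965 were called there. DESeq2 gave 1 and 1 with the same members, while 2387 and 2120 of all genes were called. With only the groups compared in the fit it was 0 for JQ1-FCPF with against without sgRNA, 0 for JQ1-FCPF against JQ1 with sgRNA, 1 for JQ1-FCPF against JQ1 without sgRNA (GCLM) and 4 for JQ1 without sgRNA against the control (SRXN1, NQO1, GCLM and TXN), while 330, 11, 2945 and 4575 of all genes were called there, against 970, 458, 1210 and 1908 with all groups in the fit. Without the 2 libraries that stood apart these 4 counts were 2, 2, 1 and 4, with 1588, 3176, 3560 and 4224 of all genes called, and JQ1 with sgRNA against the control and the difference between the sgRNA effects had 1 each. Leaving out single libraries gave 0 to 3 members for JQ1-FCPF with against without sgRNA, where 424 to 1359 of all genes were called. For JQ1-FCPF against JQ1 it gave 0 to 2 with sgRNA (68 to 2750 of all genes) and 0 to 1 without sgRNA (81 to 2324). Against the control it gave 0 to 1 for JQ1 with sgRNA (730 to 3348) and 0 to 1 for JQ1 without sgRNA (428 to 2960). The GCLC rise under JQ1-FCPF ranged from 0.43 to 0.70 (adjusted p = 0.0038 to 0.164) and was lost in 4 of 21 settings, and the one against JQ1 ranged from 0.43 to 0.71 (adjusted p = 0.0014 to 0.278) and was lost in 12 of 21. Against the control, KEAP1 and NFE2L2 lost the call in 8 and 10 of 21 settings in JQ1 with sgRNA, and in 9 and 2 in JQ1 without sgRNA. Values near 0 changed sign: GCLC for JQ1 with against without sgRNA ranged from -0.12 to 0.11 when single libraries were left out, and was -0.00 with DESeq2 or its size factors, -0.01 with the replicate block and -0.12 without the 2 libraries. GCLC for JQ1-FCPF against JQ1 without sgRNA was 0.00 without a filter and -0.16 to 0.12 without single libraries, and KEAP1 for JQ1 with against without sgRNA was 0.00 without a filter, 0.12 without the 2 libraries and -0.13 to 0.12 without single libraries. The title letters did not pair the libraries (correlations of deviations between -0.24 and 0.31), and with the replicate block 1 member was called in the same 2 comparisons and 0 in the others. The cause of these changes was not tested. SRXN1 had the widest intervals, at 3.43 to 9.03 CPM, and the part of depth in this was not tested. Depth set a limit for HMOX1, which could not be tested.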
